A study of Mus musculus with 21 samples.

Results

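Itaconate and TCA cycle enzymes were followed as 9 genes, Acod1, Cs, Idh1, Idh2, Idh3a, Ogdh, Fh1, Mdh2 and Slc25a1. They were found by matching the Ensembl gene IDs of the raw expression table to these symbols, and each symbol matched 1 row of 23250. All 9 passed the expression filter, with 73 to 147575 estimated counts per library.

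The question was what soluble mannose receptor does to macrophages. The cells were macrophages grown from bone marrow of mice with the genetic background C57BL/6J, cultured for 7 days with the supernatant of a cell line that makes GM-CSF, a growth factor for myeloid cells. The series describes the macrophages as MR-deficient, so all groups lack the mannose receptor, the protein of Mrc1, and no group of receptor-bearing cells was analysed here. From untreated cells at 0 h came 3 libraries, and 3 each from cells given FcMR or an isotype control for 4, 12 or 24 h, 21 libraries in 7 groups. FcMR is a recombinant protein that joins the outer portion of the mannose receptor to the Fc end of human IgG1. What the isotype control was made of and the age of the mice are not given in the sources used here. There was no untreated group at 4, 12 or 24 h, so in the comparison of isotype with untreated cells, time in culture and the added protein cannot be told apart. No label says whether the replicates came from separate mice or cultures, so the p-values measure only the spread between these samples, which may be technical.

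The TCA cycle is a ring of mitochondrial enzymes that oxidises acetyl groups: citrate synthase (Cs) makes citrate, isocitrate and oxoglutarate dehydrogenases (Idh3a is a subunit of the first, Ogdh of the second) carry it on, and fumarase (Fh1) and malate dehydrogenase (Mdh2) close the ring. Activated macrophages are known to remodel this cycle, to withdraw citrate for lipid synthesis through the citrate carrier Slc25a1, and to divert cis-aconitate into itaconate through the enzyme that Acod1, also called Irg1, encodes. Itaconate inhibits succinate dehydrogenase and has antimicrobial and anti-inflammatory actions.

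Library totals ran from 5532225 to 66729533 counts. Mrc1 had 0 to 11 counts in any library, with 0 in 5 of them. Macrophage markers summed to between 19743 and 35181 CPM (counts scaled to a common library size, after TMM normalization) in every library. Most of that sum was Lyz2, at 16643 to 30533 CPM. Dendritic cell markers summed to between 2013 and 3779 CPM and neutrophil markers to between 349 and 1423 CPM. Lymphocyte markers summed to at most 5.07 CPM, with Cd3e and Nkg7 each at 0 in 12 libraries. FcMR 12 h replicate 1 and isotype 4 h replicate 3 carry library numbers that stand in each other's place in the order of the titles. Their Acod1 levels, 4809 and 2575 CPM, went with the other libraries of their labelled groups (4665 and 4662 CPM, and 2591 and 2241 CPM). Libraries also differed in how GC-rich transcripts were represented. For this GC tilt, each gene's log2 level was taken relative to its mean over the 21 libraries. The tilt is the mean of these values over genes of high GC content minus that over genes of low GC content. High means the top 10%, with 57.7% GC or more, and low the bottom 10%, with 42% or less. The tilt had its lowest value, -1.64, in replicate 2 of the 4 h isotype group and its highest, 0.88, in replicate 3 of the 12 h isotype group. By tilt, both libraries out of title order lay nearer each other's group. FcMR 12 h replicate 1 had -0.76, where the other isotype 4 h libraries had -0.87 and -1.64. Isotype 4 h replicate 3 had 0.66, where the other FcMR 12 h libraries had 0.74 and 0.87. Whether both libraries were exchanged was not tested.

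Acod1 (ENSMUSG00000022126.6; GRCm38 chromosome 14, 103046977 to 103056573, plus strand, protein coding) makes itaconate. Cs (ENSMUSG00000005683.8; chromosome 10, 128337734 to 128362479, plus strand) is the entry enzyme of the cycle. Idh1 (ENSMUSG00000025950.16; chromosome 1, 65158616 to 65186500, minus strand) is the cytosolic isocitrate dehydrogenase that makes NADPH. These 3 were called between FcMR and isotype cells at 4 h, and the stretch before the start of each is shown to give the sequence context of the genes whose levels differed. Each is the RefSeq promoter sequence of GRCm38.p6, 5′ to 3′ on the gene's strand, ending before both the RefSeq start and the GENCODE gene. No letters are in capitals, because none of the 11 searched motifs falls in these stretches. They are chr14:103046762-103046976 for Acod1, chr10:128337477-128337726 for Cs and chr1:65186501-65186729 for Idh1.
Acod1: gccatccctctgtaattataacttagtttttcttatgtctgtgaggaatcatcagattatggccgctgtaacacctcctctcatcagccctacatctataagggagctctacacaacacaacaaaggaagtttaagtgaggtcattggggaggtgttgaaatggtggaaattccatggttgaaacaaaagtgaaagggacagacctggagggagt
Cs: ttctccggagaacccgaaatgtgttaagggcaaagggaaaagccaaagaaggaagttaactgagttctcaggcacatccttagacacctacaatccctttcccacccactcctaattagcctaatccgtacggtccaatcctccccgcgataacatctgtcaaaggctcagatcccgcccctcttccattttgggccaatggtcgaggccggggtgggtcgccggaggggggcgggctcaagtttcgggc
Idh1: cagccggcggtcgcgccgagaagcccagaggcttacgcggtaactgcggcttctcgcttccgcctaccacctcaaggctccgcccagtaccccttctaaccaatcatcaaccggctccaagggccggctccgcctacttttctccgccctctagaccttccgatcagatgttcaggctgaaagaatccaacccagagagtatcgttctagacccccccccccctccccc

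RefSeq gave a promoter for 8 of the 9 genes, all but Idh3a. It listed 6 starts for Ogdh, 2 for Idh1 and 1 for each of the others, and only the first listed start was used. The 250 bases before the start held 44.4% GC for Acod1, 55.2% for Cs, 61.6% for Idh1 and 70.0% for Slc25a1, against a median of 52.4% over 32851 RefSeq windows. The motifs searched on both strands were GGGANTTTC (NF-kB core, in 0.941% of all windows), GAAANNGAA (interferon response element core, 7.13%), TTCNNNGAA (STAT, 7.02%), TGACGTCA (CRE, 1.55%), TTGCNNAA (C/EBP, 9.56%), TCAAGGTCA (ERR, 0.387%), GCGCATGCG (NRF-1 core, 1.45%), TCACNCCAC (SREBP, 1.05%), the AP-1 letters TGANTCA (6.75%), the E-box letters CACGTG (6.02%) and the core promoter letters TATAAA (12.4%). Acod1 held TATAAA 28 bases before its RefSeq start, a position inside the GENCODE gene model and so outside the printed stretch. TGACGTCA was found in Ogdh (51 bases before the start) and Mdh2 (127 bases), and CACGTG in Slc25a1 (239 bases). A missing match says only that those letters are not in the window.

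Acod1 RNA was higher with FcMR than with the isotype control at all 3 times. It stood at 5424, 5551 and 5360 CPM in the FcMR libraries at 4 h (5445 ± 96.9, SD, n = 3) and at 2591, 2241 and 2575 CPM in the isotype libraries (2469 ± 197). At 12 h the FcMR libraries held 4809, 4665 and 4662 CPM and the isotype libraries 1880, 2054 and 2038 CPM. At 24 h the values were 2483, 2260 and 2374 CPM against 480, 466 and 518 CPM. The groups did not overlap at any time. By edgeR's quasi-likelihood test over 13468 genes with Benjamini-Hochberg adjustment, Acod1 was higher by a log2 fold change of 1.14 ± 0.0902 (SE) at 4 h (2.21-fold, adjusted p = 1.44e-07), 1.24 ± 0.0904 at 12 h (2.37-fold, adjusted p = 3.57e-08) and 2.28 ± 0.0934 at 24 h (4.86-fold, adjusted p = 1.13e-11). In bulk RNA, a larger share of expressing cells and more RNA per cell cannot be told apart.

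The isotype control cells also held far more Acod1 than untreated cells, whose libraries stood at 148, 133 and 112 CPM (131 ± 18.1, n = 3). Isotype cells were 18.9-fold higher at 4 h, 15.2-fold at 12 h and 3.73-fold at 24 h (log2 fold changes 4.24, 3.93 and 1.90, edgeR adjusted p = 7.60e-15, 1.40e-14 and 3.86e-11). These comparisons share the untreated libraries, and the isotype libraries are shared with the FcMR comparisons. From 4 to 24 h the mean level went from 2469 to 488 CPM in isotype cells and from 5445 to 2372 CPM in FcMR cells. The difference between FcMR and isotype varied over the 3 times for Acod1 in a joint edgeR test (adjusted p = 1.63e-05). It was the 1 gene of the 9 called in that test, in which 11% of all genes were called.

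Per kilobase of its longest coding transcript, Acod1 ranked 1168th of 11890 genes in untreated cells (49.9 ± 6.89 CPM per kb). It ranked 32nd in FcMR cells at 4 h (2076 ± 37 CPM per kb), 25th at 12 h and 58th at 24 h. In isotype cells it ranked 54th, 70th and 308th at the same times. Among the 9 genes in untreated cells the order per kilobase was Mdh2 (80.6), Idh1 (69.9), Cs (59.3), Acod1 (49.9), Ogdh (32), Slc25a1 (26.4), Idh2 (22.2), Fh1 (13.1 CPM per kb), with Idh3a last. Cs and Acod1 overlapped over their 3 libraries there, as did Slc25a1 and Idh2, while the other neighbours in that order did not. In FcMR cells at 4 h Acod1 came first and Cs second at 103 ± 4.83 CPM per kb, ahead of Mdh2 at 93.2 ± 3.96 with no overlap.

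**Figure D1:**
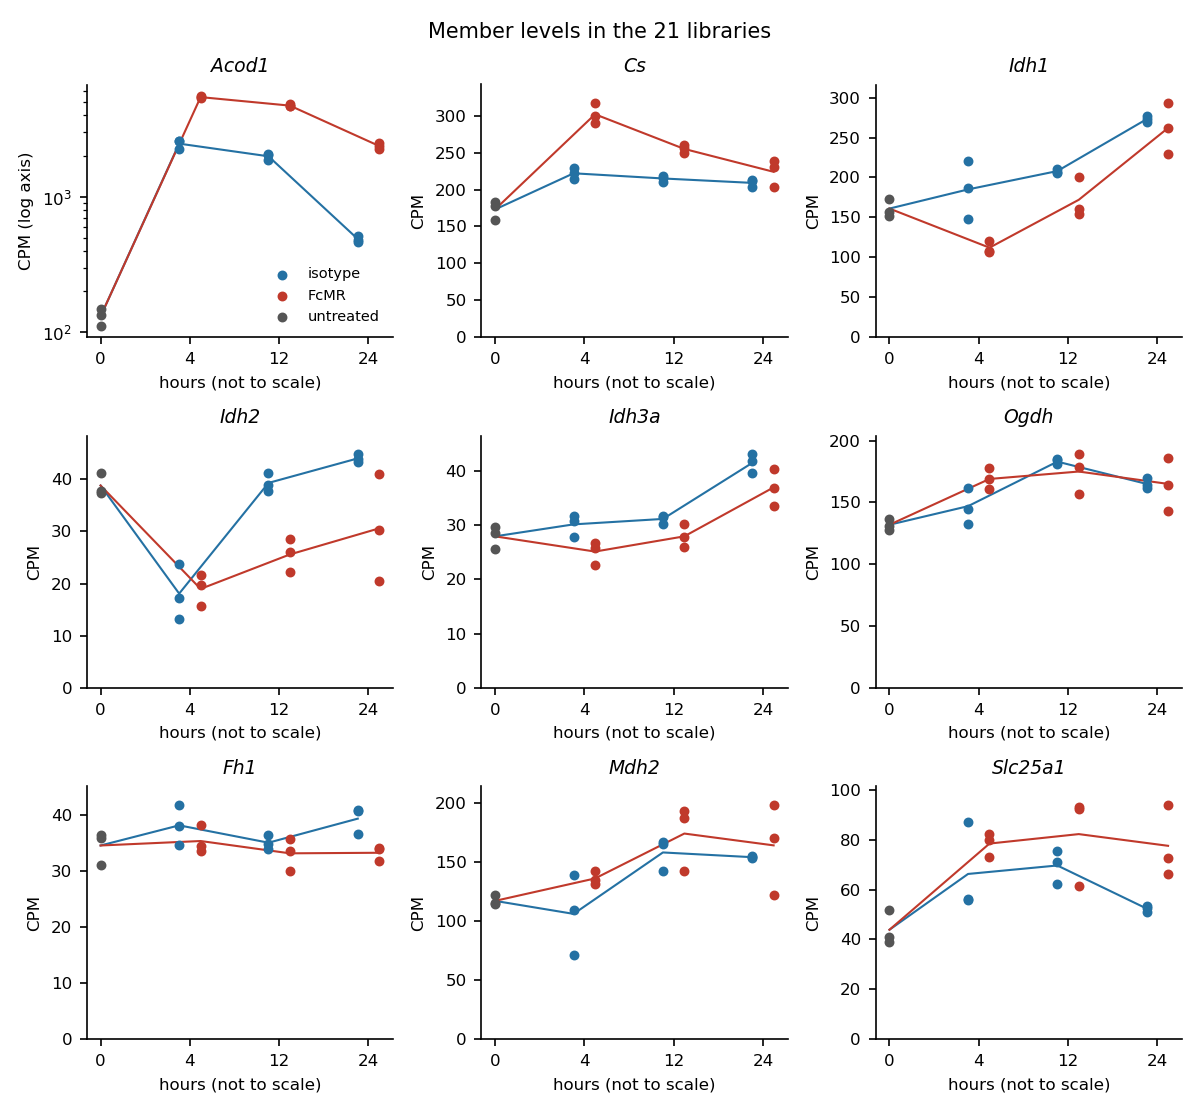
Level of each of the 9 genes in CPM (vertical axis, logarithmic for Acod1 and from 0 for the others) by hours of treatment, with 1 point per library and lines through the group means. Acod1 in FcMR libraries (2260 to 5551 CPM) lies above the isotype libraries of the same time, Cs is separated at 4 h and 12 h, and Idh1 in FcMR libraries at 4 h (106 to 121 CPM) lies below all isotype libraries.

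At 4 h, 2 of the 9 genes were higher with FcMR, Acod1 and Cs, where 8.62% of all tested genes were called higher, and 1 was lower, Idh1, where 9.13% were called lower. The median log2 fold change of the 9 was 0.21, against -0.073 over all genes tested. At 12 h, Acod1 and Cs were higher (8.61% of all genes were) and Idh2 was lower (7.49% were), with a median of -0.069 against -0.017. At 24 h, Acod1 and Slc25a1 were higher (11.4% of all genes were) and 0 were lower (9.44% were), with a median of -0.0053 against 0.0064. At an unadjusted p under 0.05, edgeR put 2 of the 9 lower at 24 h, Idh2 and Fh1, and DESeq2 and limma voom each called 1 lower, Idh2. The split of all calls at 4 h, 48.6% of them higher, moved to 62.7% with RLE factors, 64.4% with DESeq2, 62.1% with a GC offset and 66.9% with the authors' own factors.

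Cs rose with FcMR at 4 h and 12 h. Its levels at 4 h were 299, 317 and 290 CPM in FcMR libraries and 214, 222 and 229 CPM in isotype libraries. At 12 h they were 250, 260 and 256 against 218, 216 and 210 CPM. In both pairs of groups every FcMR library lay above every isotype library. The log2 fold change was 0.45 ± 0.0707 at 4 h (1.36-fold, edgeR adjusted p = 2.30e-04) and 0.25 ± 0.0703 at 12 h (1.19-fold, adjusted p = 0.0198). At 24 h the libraries overlapped, 231, 204 and 238 CPM against 203, 213 and 211, with a log2 fold change of 0.10 ± 0.0705 (adjusted p = 0.364). Whether the difference varied over time was not called for Cs (joint edgeR test, adjusted p = 0.0742), but it was with RLE factors (0.0391) and DESeq2 (0.00303). The 12 h call was lost in 5 of the 6 fits that left out 1 library, all but that without FcMR 12 h replicate 1 (adjusted p from 0.0673 to 0.0932), and when only those 2 groups were fitted (0.0808). Isotype cells were also above untreated ones (183, 178 and 159 CPM) at 4, 12 and 24 h, by log2 fold changes of 0.35, 0.31 and 0.27, each called.

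Idh1, whose reaction yields NADPH in the cytosol, fell with FcMR at 4 h. FcMR libraries held 121, 108 and 106 CPM and isotype libraries 187, 220 and 148 CPM, with no overlap. The log2 fold change was -0.73 ± 0.128 (1.65-fold lower, edgeR adjusted p = 6.33e-04). The 4 h FcMR libraries also lay below the untreated libraries, at 152, 173 and 157 CPM, a pair of groups for which no test was run. At 12 h FcMR libraries were at 201, 154 and 161 CPM and isotype libraries at 207, 211 and 206 CPM, with a log2 fold change of -0.27 ± 0.126 (adjusted p = 0.171). At 24 h the groups overlapped, 262, 293 and 229 CPM against 270, 273 and 277 (-0.063 ± 0.126, adjusted p = 0.801). The joint edgeR test over the 3 times gave an adjusted p of 0.0507 for Idh1, just above the threshold, and 0.00249 without both libraries whose numbers are out of title order. Without those libraries the 12 h difference was also called, at -0.40 (adjusted p = 0.0119). In isotype cells Idh1 was above untreated cells by 0.37 at 12 h (adjusted p = 0.026) and 0.76 at 24 h (adjusted p = 9.62e-05), and the 12 h call was lost in 7 of 17 alternatives, among them RLE factors (0.0524) and the fits without untreated replicates 1 or 3 (0.084 and 0.0728) or without any 1 isotype library (0.0525 to 0.058).

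Idh2, the mitochondrial NADPH-producing isocitrate dehydrogenase (ENSMUSG00000030541.16, chromosome 7, 80094846 to 80115392, minus strand), showed its clearest difference between isotype and untreated cells at 4 h. Untreated libraries held 41.2, 37.4 and 37.7 CPM and the 4 h isotype libraries 17.2, 13.2 and 23.8 CPM, which did not overlap. Idh2 fell there by 1.09 on the log2 scale (2.13-fold lower, SE 0.212, edgeR adjusted p = 5.79e-04). The untreated libraries had GC tilts of 0.81, 0.01 and 0.45 and the 4 h isotype libraries -0.87, -1.64 and 0.66. With the GC offset the difference was -0.79 (edgeR adjusted p = 1.07e-05). FcMR libraries at 4 h were similarly low, at 21.6, 19.7 and 15.7 CPM, and overlapped the isotype libraries. By 12 h isotype libraries stood at 38.9, 41.2 and 37.8 CPM, while FcMR libraries held 22.2, 26 and 28.6 CPM. This 12 h difference of -0.61 ± 0.203 was called at an adjusted p of 0.0487. The call was lost in each of the 6 fits without 1 library (adjusted p from 0.0548 to 0.163). At 24 h FcMR libraries spread from 20.5 to 41 CPM (30.2, 20.5 and 41) below isotype libraries at 43.4, 44.8 and 43.8 CPM, with a log2 fold change of -0.54 ± 0.205 (edgeR adjusted p = 0.074).

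Slc25a1 (ENSMUSG00000003528.14, chromosome 16, 17925223 to 17928219, minus strand), the carrier that exports citrate from mitochondria, rose with FcMR at 24 h. FcMR libraries held 72.8, 66.2 and 93.9 CPM and isotype libraries 51.1, 53.4 and 52.8 CPM, with no overlap. The log2 fold change was 0.56 ± 0.185 (1.48-fold, edgeR adjusted p = 0.037). The call was lost without any 1 of the 3 isotype libraries and without FcMR 24 h replicate 3 (adjusted p from 0.0735 to 0.129, the highest without the FcMR library). At 4 h FcMR libraries were at 73.2, 82.4 and 79.9 CPM against 55.7, 56.1 and 87.1 CPM, and isotype replicate 3 lay above all of them. At 12 h they were at 61.3, 93.1 and 92.4 against 62.4, 71.1 and 75.6 CPM, where FcMR replicate 1 lay below all isotype libraries. Neither of these differences was called (0.24 at both times, adjusted p = 0.425 and 0.473). Without both libraries out of title order they were called (0.49 and 0.41, edgeR adjusted p = 0.0182 and 0.0489). The 4 h isotype libraries left then had GC tilts of -0.87 and -1.64, against -0.43, -0.23 and -0.58 for FcMR. Under a GC offset on all libraries the FcMR difference was 0.17 at 4 h (edgeR adjusted p = 0.558) and 0.57 at 12 h (adjusted p = 0.0278). Isotype cells exceeded untreated cells (51.7, 41.1 and 39 CPM) by 0.60 at 4 h and 0.67 at 12 h, both called. With the GC offset the 4 h difference of isotype from untreated cells was 1.23 (edgeR adjusted p = 4.53e-05). At 24 h that difference was called too (0.66, adjusted p = 0.00696, against 0.26 without the offset). The 4 h call was lost in 5 of 17 alternatives, among them the fits without isotype 4 h replicate 3 (0.35, adjusted p = 0.113) and without untreated replicates 2 or 3 (adjusted p = 0.0622 and 0.0758), and the 12 h call with a GC offset (0.38, adjusted p = 0.0978).

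**Figure D2:**
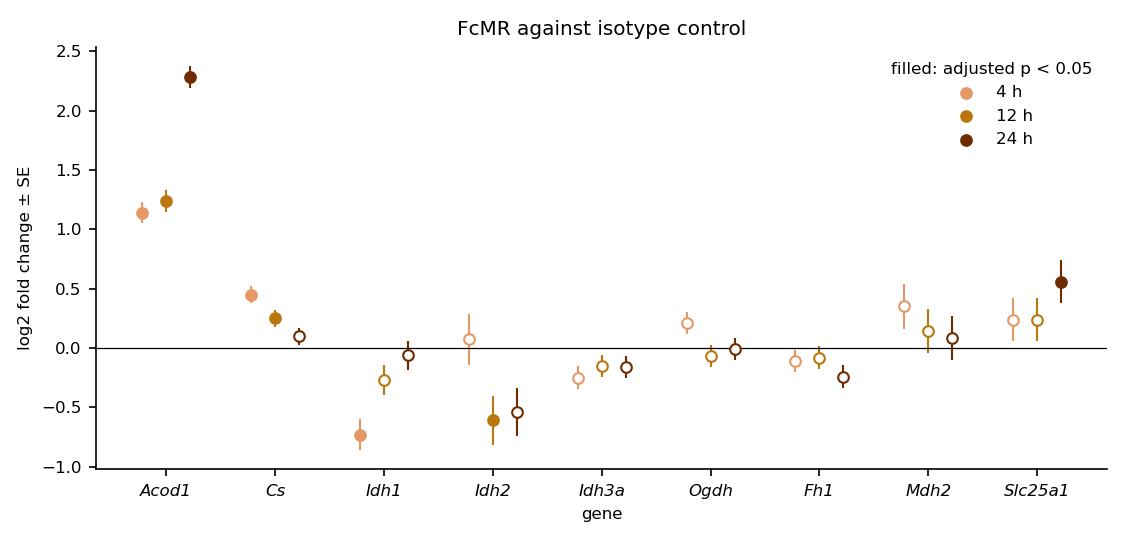
Log2 fold change of FcMR against isotype (vertical axis) with its SE as bars for the 9 genes at 4, 12 and 24 h, filled where the adjusted p was under 0.05. Acod1 is filled at all 3 times with its highest value of 2.28 at 24 h, Cs goes from 0.45 to 0.10, and Idh1 from -0.73 to -0.063.

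The subunits and enzymes of the later steps were not called by the main edgeR fit between FcMR and isotype cells at 4, 12 or 24 h. Idh3a, the catalytic subunit of the NAD-dependent isocitrate dehydrogenase (ENSMUSG00000032279.11, chromosome 9, 54586334 to 54604661, plus strand), held 26.6, 25.8 and 22.7 CPM with FcMR at 4 h and 30.7, 31.7 and 27.7 CPM with isotype, a difference of -0.25 ± 0.0952 (edgeR adjusted p = 0.0755). These groups did not overlap. The Idh3a difference was called without isotype 4 h replicate 3 (-0.31, edgeR adjusted p = 0.045). It was also called without both libraries out of title order (-0.31, adjusted p = 0.0429). With the GC offset the Idh3a difference was -0.095 and was not called (edgeR adjusted p = 0.552). Ogdh (ENSMUSG00000020456.17, chromosome 11, 6291633 to 6356642, plus strand) held 169, 178 and 161 CPM against 145, 133 and 162 CPM at 4 h, where the groups overlapped at their edge (0.21 ± 0.0938, edgeR adjusted p = 0.144). This difference was called by DESeq2 (0.27, adjusted p = 0.0285) and by edgeR with RLE factors (0.27, adjusted p = 0.049). It was also called by edgeR without both libraries out of title order (0.28, adjusted p = 0.0358). The span of Fh1 (ENSMUSG00000026526.14, chromosome 1, 175600374 to 175625635, minus strand) overlaps that of Kmo on the opposite strand. Cs overlaps Gm23182 and Idh2 overlaps Gm45203, each on its own strand. Whether transcripts of these pairs share sequence was not checked. The largest difference of Fh1 was at 24 h, 31.8, 34.1 and 34 CPM with FcMR against 41, 36.6 and 40.7 CPM with isotype, groups that did not overlap (-0.24 ± 0.0939, adjusted p = 0.0795). Mdh2 (ENSMUSG00000019179.10, chromosome 5, 135778480 to 135790398, plus strand) held 131, 142 and 135 CPM with FcMR at 4 h and 109, 71.6 and 139 CPM with isotype, where the groups overlapped (0.35 ± 0.189, adjusted p = 0.23). The Mdh2 difference was called without isotype 4 h replicate 3 (0.59, edgeR adjusted p = 0.0296). It was also called without both libraries out of title order (0.59, adjusted p = 0.0163). At 12 and 24 h Mdh2 ranged from 122 to 198 CPM over the FcMR libraries and from 142 to 167 CPM over the isotype libraries.

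Isotype cells were also compared with untreated cells. At 4 h, 3 of the 9 were called higher and 1 lower, where 20.4% and 15.2% of all genes were. At 12 h, 5 were higher and 0 lower, against 22% and 19.6% of all genes, and at 24 h again 5 and 0, against 21.3% and 20.9%. At an unadjusted p under 0.05 edgeR also put 0 of the 9 lower at 12 h and 24 h, as did DESeq2 and limma voom at their adjusted p. The medians of the 9 were 0.15, 0.37 and 0.32 on the log2 scale, against -3.35e-04, 0.033 and -0.037 over all genes tested. Idh3a rose by 0.57 at 24 h, from 28.6, 29.7 and 25.5 CPM in untreated libraries to 39.5, 41.8 and 43 CPM (edgeR adjusted p = 8.34e-05). Ogdh rose from 131, 137 and 128 CPM to 185, 181 and 184 CPM at 12 h (0.47 ± 0.0934, adjusted p = 5.26e-04) and to 162, 164 and 170 CPM at 24 h (0.32, adjusted p = 0.00992). Fh1 and Mdh2 were not called by the main edgeR fit at any of the 3 times, and the lowest adjusted p was 0.0745, for Mdh2 at 12 h. Mdh2 was called higher by edgeR with the GC offset at 12 h (0.30, adjusted p = 0.00157) and 24 h (0.53, adjusted p = 4.72e-06), with only the groups compared (adjusted p = 0.00173 and 1.57e-04), and by DESeq2 at 24 h (0.43, adjusted p = 0.0486). Without both libraries out of title order Mdh2 was called at 12 h and 24 h (adjusted p = 0.0158 and 0.0227) and Fh1 at 24 h (0.22, adjusted p = 0.048).

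In the 3 groups whose libraries differed most in GC tilt, isotype 4 h, FcMR 12 h and FcMR 24 h, the tilt moved with the levels of the GC-rich genes Slc25a1 (59.7% GC), Idh2 (55.6%) and Mdh2 (55.5%). The 3 isotype libraries at 4 h had tilts of -0.87, -1.64 and 0.66, and the library with the tilt of 0.66 was the highest of the 3 for all 3 genes. FcMR 12 h replicate 1, at -0.76 where its group's other libraries had 0.74 and 0.87, was the lowest of its group for the same genes. At 24 h the FcMR libraries had tilts of -0.34, -1.34 and 0.45 and the isotype libraries -0.078, -0.023 and -0.057, and the FcMR libraries stood in the order of their tilts for all 3 genes. In other groups the order differed: at 12 h the isotype libraries, with tilts of 0.64, 0.83 and 0.88, held 167, 142 and 165 CPM of Mdh2, and at 4 h the FcMR libraries, with tilts of -0.43, -0.23 and -0.58, held 73.2, 82.4 and 79.9 CPM of Slc25a1. Idh1, with 45.8% GC, went the other way in the 3 groups named first. Isotype 4 h replicate 3 was the lowest of its group (187, 220 and 148 CPM). FcMR 12 h replicate 1 was the highest of its group (201, 154 and 161 CPM). The FcMR libraries at 24 h, at 262, 293 and 229 CPM, stood in the reverse order of their tilts. With each library's GC trend taken out as an offset, the 24 h difference was 0.86 for Slc25a1 (edgeR adjusted p = 0.00168) and -0.42 for Idh2 (adjusted p = 0.00392). Under that offset Mdh2 was called higher at 4 h (0.32), 12 h (0.29) and 24 h (0.22), Slc25a1 also at 12 h (0.57) and Ogdh at 4 h (0.22). Idh2 remained called lower at 12 h (-0.45, adjusted p = 0.00258), Idh1 was called lower also at 12 h (-0.34, adjusted p = 5.90e-04) and Fh1 at 24 h (-0.32, adjusted p = 0.0101). With the offset 5, 6 and 5 of the 9 genes were called at 4, 12 and 24 h, where the share of all genes called in either direction went from 17.7% to 27.8%, from 16.1% to 25.1% and from 20.9% to 30%. Acod1 (47.6% GC) and Cs (49.3% GC) kept their calls at 4 h and 12 h, with a Cs difference of 0.53 at 4 h. Idh1 kept its 4 h call, at -0.58 (edgeR adjusted p = 2.38e-06) against -0.73 without the offset. What gave the libraries their tilts, and how much of each difference goes with them beyond these values, was not tested.

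**Figure D3:**
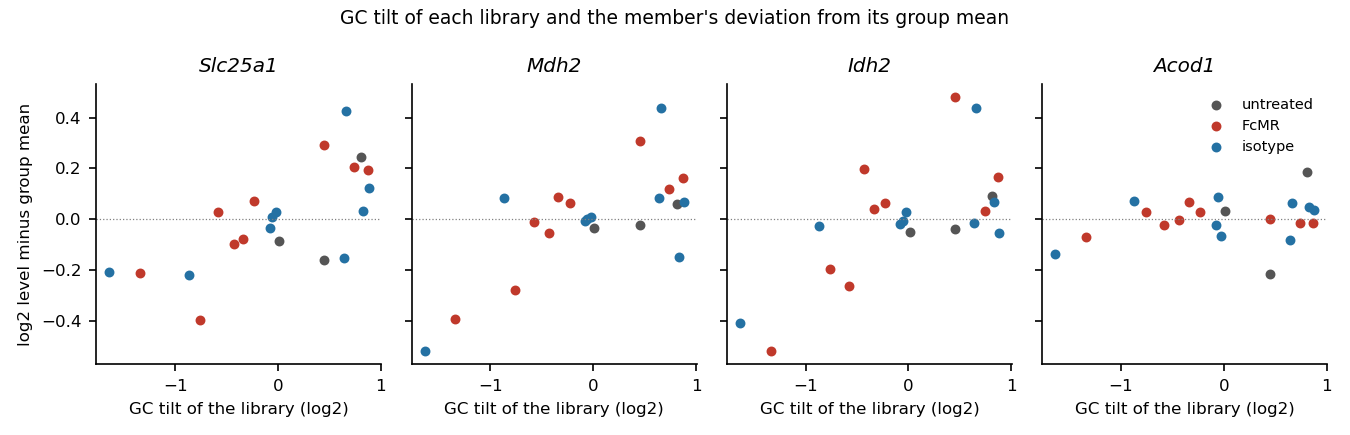
GC tilt of each of the 21 libraries (horizontal axis, log2) against the library's log2 level of Slc25a1, Mdh2, Idh2 or Acod1 minus its group mean (vertical axis). The libraries at tilts of -1.64 and -1.34 lie below their group means for Slc25a1, Mdh2 and Idh2, and for Acod1 as well.

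The other 14 TCA cycle enzymes were compared between FcMR and isotype cells in the same way: 0 of 14 were called by edgeR at 4 h, 0 at 12 h and 1 at 24 h, where 17.7%, 16.1% and 20.9% of all genes were called in either direction. At an unadjusted p under 0.05 the counts were 1 at 4 h, which was lower, and 1 higher and 2 lower at 12 h. DESeq2 called 0 at both times, and limma voom 0 at 4 h and 1 at 12 h. With the GC offset 2 of the 14 were called at each of 4, 12 and 24 h, where 27.8%, 25.1% and 30% of all genes were. Without both libraries out of title order 2 were called at 4 h, where 3898 of all genes were, and 1 at 12 h. The gene called at 24 h by the main fit was Sdhc, a membrane subunit of succinate dehydrogenase. It held 88.9, 78.4 and 105 CPM in FcMR libraries and 111, 120 and 119 CPM in isotype libraries (-0.37, edgeR adjusted p = 0.0105). Its call was lost in 4 of 17 alternatives: with the authors' own factors (0.0745), with only the groups compared (0.0821), and without replicate 2 of FcMR (0.0681) or of isotype (0.0538) at 24 h. The median log2 fold change of these 14 was -0.052, -0.14 and -0.082 at 4, 12 and 24 h, against -0.073, -0.017 and 0.0064 over all genes tested.

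Genes that shuttle citrate, malate and glutamate between mitochondria and cytosol gave 2 calls among 12 at 4 h, 1 at 12 h and 4 at 24 h, to be read against the same 17.7%, 16.1% and 20.9% of all genes. With the GC offset the counts were 3, 6 and 6 of 12, where 27.8%, 25.1% and 30% of all genes were called. Me1, the cytosolic malic enzyme that makes NADPH, was at 40.8, 45.5 and 34.1 CPM in FcMR libraries at 24 h and 15.6, 16.5 and 17.1 CPM in isotype libraries, with no overlap. It rose by 0.48 at 12 h (edgeR adjusted p = 0.0077) and 1.29 at 24 h (adjusted p = 3.31e-07), and had a difference of 0.036 at 4 h. The 12 h call was lost with the authors' factors (0.0718) and without isotype 12 h replicate 1 (0.0547), and the 24 h call in 0 of 17 alternatives. The joint test over the times called Me1 (adjusted p = 2.94e-04).

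Pcx, pyruvate carboxylase, which refills oxaloacetate, was at 30, 18.4 and 47.4 CPM with FcMR at 24 h and 11.5, 11.1 and 16 CPM with isotype (1.30, edgeR adjusted p = 0.0305), and its call was lost with limma voom (0.0688) and without FcMR 24 h replicates 1 or 3 (0.0527 and 0.125) or isotype 24 h replicates 1 or 2 (0.101 for each). The FcMR libraries stood in the order of their GC tilts, and with the GC offset the difference was 1.44. Slc25a13, a mitochondrial aspartate-glutamate carrier, fell at 4 h (-0.49, adjusted p = 0.0131) and at 24 h (-0.59, adjusted p = 0.00291), where FcMR libraries held 16.4, 19 and 14.1 CPM and isotype libraries 24.6, 28 and 22.3 CPM. Its 4 h call was lost in 6 of 17 alternatives, among them the fits without FcMR 4 h replicates 2 or 3 (0.0663 and 0.155) or isotype 4 h replicate 2 (0.113), and its 24 h call was kept in all 17 alternatives. The related carrier Slc25a12 rose at 4 h by 0.37 (adjusted p = 0.00412), a call lost with only the groups compared (0.0715), and the oxoglutarate carrier Slc25a11 at 24 h by 0.24 (adjusted p = 0.0487), a call lost in 8 of 17 alternatives.

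Of 6 genes linked to the handling of itaconate, 4 were tested. By edgeR 0 were called with FcMR at 4 h, 0 at 12 h and 1 at 24 h, where an unadjusted p under 0.05 gave 1 at 4 h and 0 at 12 h, and DESeq2 and limma voom called 0 at both. Over all genes edgeR called 17.7%, 16.1% and 20.9% in either direction at 4, 12 and 24 h. The GC offset gave 0, 0 and 2 calls among the 4, where 27.8%, 25.1% and 30% of all genes were called. Auh, a mitochondrial methylglutaconyl-CoA hydratase, was at 32.1, 30.6 and 38.2 CPM in FcMR libraries at 24 h and 24, 28.9 and 22.7 CPM in isotype libraries (0.41, edgeR adjusted p = 0.0111). The joint test over times called Auh too (adjusted p = 0.0169). Without isotype 24 h replicates 1 or 3 both calls were lost (adjusted p = 0.0508 and 0.0608 at 24 h, 0.0596 and 0.0634 in the joint test). Against untreated cells at 26.9, 28 and 30.1 CPM, isotype cells at 4 h held 9.91, 9.2 and 11 CPM, so that Auh fell by 1.49 there (adjusted p = 1.63e-08) and by 0.52 at 12 h. Clybl, which degrades citramalyl-CoA, a product of itaconate breakdown, fell in isotype cells by 0.71 at 4 h and 1.06 at 12 h (adjusted p = 0.00238 and 3.08e-05). Abcg2, an exporter, was higher by 0.61 at 4 h (adjusted p = 0.0413) and 0.98 at 24 h (adjusted p = 0.00142). The 4 h Abcg2 call was lost in 11 of 17 alternatives. Clybl, Abcg2 and the isotype values of Auh were chosen after their values were seen.

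**Figure D4:**
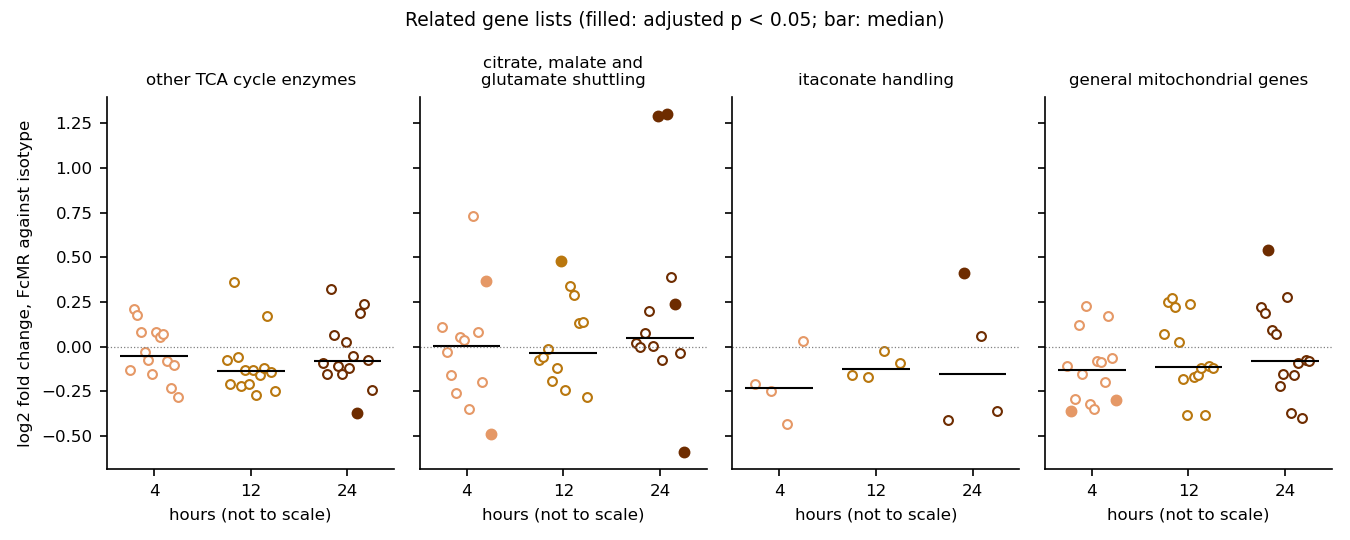
Log2 fold change of FcMR against isotype (vertical axis) of each tested gene of 4 related lists at 4, 12 and 24 h, filled where the adjusted p was under 0.05, with a bar at the median. Of the 14 other TCA cycle enzymes only Sdhc (-0.37 at 24 h) is filled, and Me1 (1.29) and Pcx (1.30) stand highest at 24 h in the shuttling list.

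As a comparison, 14 general mitochondrial genes gave 2 edgeR calls at 4 h, 0 at 12 h and 1 at 24 h. Of all genes, 17.7%, 16.1% and 20.9% were called in either direction at these times. At 12 h an unadjusted p under 0.05 gave 3 higher, DESeq2 called 1 higher and limma voom 0. The GC offset gave 2, 1 and 1 calls at 4, 12 and 24 h, where 27.8%, 25.1% and 30% of all genes were called. The mitochondrial chaperonin gene Hspd1 (-0.36, edgeR adjusted p = 0.0377) and the outer membrane channel gene Vdac2 (-0.30, adjusted p = 0.0342) were lower at 4 h, calls lost in 12 and 10 of 17 alternatives. Hspe1, the partner of Hspd1, was higher at 24 h (0.54, adjusted p = 0.00175). The median of this list was -0.13 at 4 h and -0.078 at 24 h.

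Cell type markers also differed between FcMR and isotype cells at the times of these calls, 4, 12 and 24 h, when 17.7%, 16.1% and 20.9% of all genes were called. At 4 h the edgeR test called 3 of 7 macrophage markers, with Fcgr1 (0.78) and Mertk (0.67) higher and Csf1r (-0.34) lower, and 1 of 5 dendritic cell markers, Ccr7 (0.55). At 12 h Adgre1 (0.72), the dendritic cell marker Zbtb46 (0.38) and the neutrophil marker S100a8 (0.53) were higher, and Itgam (-0.67), Flt3 (-0.57) and Mmp8 (-1.15) lower. At 24 h, of 7 macrophage markers 4 were lower and 1, Adgre1, higher, and dendritic cell markers had 2 of 5 higher and 1 lower. Neutrophil markers summed to 543 to 686 CPM with FcMR and 1309 to 1423 CPM with isotype at 24 h. Most of that sum was 1 gene, Mmp8, at 394 to 526 CPM against 1190 to 1310 CPM. S100a8 was higher with FcMR, 132 to 144 CPM against 84.5 to 86.5 CPM, Ngp was lower, and Ly6g, which defines neutrophils, was at most 0.49 CPM. These marker genes are named outside the naming rule, after their values were seen. Their part in the differences of the 9 genes was not tested.

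Over the 7 group means of log2 CPM, the genes whose pattern was most like that of Acod1 among 8810 candidates were Cxcl3 (Pearson r = 0.996), a neutrophil-attracting chemokine, Rassf4 (0.993) and Enpp4 (0.992). For Idh1 they were Fads1 (0.991), a fatty acid desaturase, Pqlc3 (0.986) and Hmgn1 (0.983). On the authors' normalized values r was 0.963 for Rassf4, 0.990 for Pqlc3 and 0.814 for Hmgn1. These are descriptions over 7 means that share libraries and scaling.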

How the data were processed

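RNA was measured in 21 mouse macrophage libraries. Reads were handled with CASAVA 1.8.2, kallisto 0.44.0 and DESeq2, and builds mm10 and GRCm38 were used, per the submitters' processing notes. The annotation is not given in the sources used here. The raw table deposited by the authors holds estimated counts per gene as whole numbers. Their normalized table, a linear signal, equals the deposited counts divided by a factor per gene and library, whose geometric mean is 1 for each of the 13034 genes without a 0. It was used for an alternative offset.

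Gene IDs were matched without version to GENCODE M21 (GRCm38), with a symbol for 23206 of 23250 genes. The 7 groups were read from the titles. The plan had assumed counts, and its test was kept for the estimated counts. The main test was edgeR 4.0.16 (R 4.3.3), quasi-likelihood, with TMM scaling, filterByExpr (minimum 10 counts, 13468 genes kept), 1 coefficient per group and Benjamini-Hochberg adjustment over all genes. A gene was called at an adjusted p under 0.05. The SE is the log2 fold change divided by the square root of F. The fit was also run on simulated counts with the same spread setting for every gene and no GC tilt. That run cannot show how the fit does under the tilts seen here. The GC offset is a lowess (span 0.3), per library, on transcript GC content. It was fitted to each gene's log2 level minus the gene's mean over the 21 libraries.

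Library totals ran from 5532225 to 66729533 counts, and the lowest count of any of the 9 genes was 73. Alternatives were RLE factors, the authors' factors, other filters, DESeq2 1.42.0, limma 3.58.1 voom, a replicate block, the GC offset, smaller fits and libraries left out. Genes are named by a rule: the 9 genes, the called genes of 4 lists in each FcMR comparison (at most 3 each way by size), and the 3 genes most like Acod1 and Idh1 above a mean log2 CPM of 3. The members and lists were chosen with earlier results of these data known. Figures were drawn with matplotlib.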

Additional observations from a re-analysis of the deposited data

Results flagged for a closer look

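The difference between FcMR and isotype in Acod1 was not the same at the 3 times, which a joint edgeR test of the changes in the log2 fold change from 4 to 12 h and from 12 to 24 h showed at an adjusted p of 1.63e-05. Its log2 size went from 1.14 (4 h) through 1.24 (12 h) to 2.28 (24 h). All 3 FcMR libraries lay above all 3 isotype libraries at each time. Over the alternatives the adjusted p ran from 4.42e-18 to 1.27e-04. At 24 h the isotype libraries held 466 to 518 CPM and the FcMR libraries 2260 to 2483 CPM.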

How the results depend on the processing

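Of the 54 differences of the 9 genes over the 6 comparisons, 22 were called and 16 of these kept their call in every alternative run, among them Acod1 in all 6 comparisons, Cs at 4 h and Idh1 at 4 h with FcMR. Among the 32 that were not called, 5 had neither a call nor a change of sign in any alternative. Depth differed 12.1-fold between libraries, and 3 libraries a group limit what small differences can be seen. No scaling moved the median of all genes by more than 0.085 on the log2 scale.

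Same-numbered libraries did not meet the rule for pairs: the correlations of their deviations with FcMR and isotype were 0.031, -0.14 and -0.08 at 4 h, 0.15, 0.026 and 0.095 at 12 h, and 0.028, 3.97e-04 and 0.0074 at 24 h. With the replicate block the joint test called 2 of the 9 genes in place of 1, and no other count of the 9 or of all genes moved by over 1.5 times. For the other changes given here the cause was not tested.

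The number of the 9 genes called with FcMR at 4 h (3) became 5 with the GC offset, 5 with the GC offset and replicate block, 7 without both libraries out of title order, and 3 to 5 leaving out 1 library. At 12 h (3) it became 6 and 6 with the offset, and 1 to 2 leaving out 1 library. At 24 h (2) it became 5 and 5, and 1 to 2. For isotype against untreated at 24 h (5) it became 8 with the GC offset, 8 with offset and block, and 8 with only the groups compared. In the joint test (1) it became 2 with RLE factors, 2 with DESeq2, 4 and 4 with the GC offset without and with the block, 2 without both libraries out of title order, 2 with only the groups compared, and 1 to 3 leaving out 1 library.

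Over all genes, the 2390 calls at 4 h became 3748 with the GC offset, 3945 with offset and block, 3898 without both libraries out of title order, 868 with only the groups compared and 1589 to 3151 leaving out 1 library. At 12 h, 2169 became 3376 and 3572 with the offset without and with the block, and at 24 h 2813 became 4038 and 4189. For isotype against untreated at 4 h, 4792 became 2881 with only the groups compared. In that comparison at 24 h, 5690 of 13468 genes became 7295 with the GC offset and 7425 with offset and block. The joint test's 1484 became 925 with no filter, 2987 and 3207 with the offset, 2616 without both libraries and 973 to 2294 leaving out 1 library.

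Signs changed for uncalled differences. Fh1 with FcMR at 4 h went to 0.0086 with no filter and 0.023 and 0.028 with the offset without and with the block, and at 24 h to 0.069 with the authors' factors. Ogdh with FcMR went to 0.0013 at 12 h without both libraries, and at 24 h to 0.0089 with no filter, 0.019 and 0.019 with the offset and 0.0051 without both libraries. Against untreated at 4 h, the offset without and with the block gave -0.0025 and -0.0037 for Idh1, -0.13 and -0.14 for Idh3a (-0.0017 with no filter), -0.055 and -0.059 for Fh1, and 0.15 and 0.15 for Mdh2. At 12 h Idh2 went to -0.0031 with RLE factors and -0.0031 with DESeq2, -0.12 and -0.13 with the offset and -0.0019 with only the groups compared, and Fh1 to -0.0023 with RLE factors, -0.032 with the authors' factors and -0.0035 with DESeq2. Leaving out 1 library, the FcMR difference ranged from -0.06 to 0.33 for Idh2 at 4 h, -0.13 to 0.0012 for Ogdh at 12 h, and at 24 h from -0.15 to 0.029 for Idh1, -0.097 to 0.091 for Ogdh and -0.069 to 0.26 for Mdh2. Against untreated it ranged from -0.38 to 0.044 for Mdh2 at 4 h, and at 12 h from -0.0057 to 0.069 for Idh2 and -0.048 to 0.069 for Fh1.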
